A study of Homo sapiens and Mus musculus with 10 samples.

Results

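The HOX cluster genes were taken as the rows of the 2 deposited HEK293T tables whose symbol is HOXA, HOXB, HOXC or HOXD followed by a number and nothing else, so that antisense and intergenic transcripts of the clusters stayed out. The rule gave 36 genes of 16606 symbols, on 37 transcript rows, because HOXA10 is represented by a different transcript in each table. The tables held 10 HOXA, 9 HOXB, 9 HOXC and 8 HOXD genes. Of the 37 rows, 27 occurred in both tables and could be tested together (7 HOXA, 9 HOXB, 5 HOXC and 6 HOXD) among 10368 transcripts that both tables share. Of the rest, 8 rows occurred in the stress table alone, with at most 20 reads in any library (HOXA3, HOXA7, HOXC4, HOXC6, HOXC12, HOXD1, HOXD12 and a HOXA10 transcript), and HOXC5 and another HOXA10 transcript occurred in the genotype table alone.

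The series measured RNA after removal of ribosomal RNA in HEK293T, an established human embryonic kidney line, and in a mouse line that is not used here. Glucose deprivation (GD) lasted 24 h and is labelled metabolic oxidative stress. Thapsigargin (TG), which blocks calcium uptake into the endoplasmic reticulum and so causes ER stress, was given at 300 nM for 6 h, and both treatments were set against mock-treated cells. The stress set has GD, TG and mock from wild-type (WT) cells, and the genotype set has GD and mock from UFD1s-deficient and from WT cells, with 1 library per condition in each set. The labels do not say how the UFD1s-deficient line was made or whether it is 1 clone. Nor do they say whether libraries came from separate cultures. The p-values for GD and genotype rest only on how the GD response varied between 3 pairs of a GD and a mock library. They hold no spread between libraries of the same genotype, treatment and set.

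HOX genes encode homeodomain transcription factors that give cells along the head-to-tail axis, the limbs and the urogenital tract their positional identity. In mammals they lie in 4 clusters on different chromosomes, HOXA on chromosome 7, HOXB on 17, HOXC on 12 and HOXD on 2, and genes with the same number in different clusters are paralogs. Within a cluster the low numbers act toward the head and the high numbers toward the tail. Polycomb complexes keep HOX genes silent and trithorax complexes keep them active, so that the set of HOX genes a line expresses is usually stable.

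The sequences before the start sites of 4 members show what kind of promoter is concerned. HOXA13 was the member that fell both in GD and in the UFD1s-deficient cells, HOXD10 and HOXD13 were among the highest of the HOXD cluster and fell in GD, and HOXD4, their neighbour in the same cluster, was not called in GD. The 250 bases before each start are given 5′ to 3′ on the gene's strand, from RefSeq on GRCh38.p14, with CG dinucleotides in capitals. HOXA13 lies at chr7:27200092-27200341 on the minus strand, HOXD10 at chr2:176116528-176116777, HOXD13 at chr2:176092471-176092720 and HOXD4 at chr2:176151300-176151549, the last 3 on the plus strand.
HOXA13: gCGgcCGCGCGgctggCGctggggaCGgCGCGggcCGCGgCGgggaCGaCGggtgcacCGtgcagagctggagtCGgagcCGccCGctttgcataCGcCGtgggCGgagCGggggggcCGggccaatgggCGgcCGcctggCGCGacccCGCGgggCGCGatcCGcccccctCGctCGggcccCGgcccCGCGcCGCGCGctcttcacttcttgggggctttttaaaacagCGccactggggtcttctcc
HOXD10: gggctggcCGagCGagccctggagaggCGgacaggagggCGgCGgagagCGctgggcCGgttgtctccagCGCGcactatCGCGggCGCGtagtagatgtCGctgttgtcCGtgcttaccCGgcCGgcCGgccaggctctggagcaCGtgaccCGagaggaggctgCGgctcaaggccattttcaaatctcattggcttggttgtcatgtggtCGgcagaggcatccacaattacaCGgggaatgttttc
HOXD13: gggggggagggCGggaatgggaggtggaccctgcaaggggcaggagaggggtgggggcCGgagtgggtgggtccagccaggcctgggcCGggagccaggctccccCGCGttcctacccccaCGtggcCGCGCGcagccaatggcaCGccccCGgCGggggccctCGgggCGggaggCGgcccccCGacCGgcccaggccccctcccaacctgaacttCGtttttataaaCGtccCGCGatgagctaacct
HOXD4: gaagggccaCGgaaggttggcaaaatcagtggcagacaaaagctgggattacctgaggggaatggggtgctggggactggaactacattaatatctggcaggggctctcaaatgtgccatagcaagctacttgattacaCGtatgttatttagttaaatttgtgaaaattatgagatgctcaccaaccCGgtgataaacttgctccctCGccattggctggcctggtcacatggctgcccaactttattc
The windows held 40 CG dinucleotides for HOXA13, 23 for HOXD10, 21 for HOXD13 and 4 for HOXD4. HOXD3, which like HOXD4 was not called in GD, held 21 in its window, as many as HOXD13. Over 24 distinct HOX windows, which cover 18 of the 36 genes, the median was 19.5, against a median of 11 over 35116 promoter windows of the same length. No HOXB gene is among the 18, and 7 of the 24 windows belong to HOXA3, which had at most 3 reads and was not tested. The TATA box letters TATAAA, searched on both strands, stood in 5 of the 24 HOX windows, the window of HOXD13 among them, and in 10.72% of all windows. The letters TGATTNAT, a form of the joint PBX and HOX motif, stood in 2 of 24, HOXA2 and HOXD11, and in 2.48% of all windows. No HOX window held both motifs, and a match describes the sequence only.

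The libraries held 11461365 to 19024327 reads counted on transcripts. Reads were counted per transcript without a stated use of strand, so reads of a HOX gene and of an antisense transcript over it cannot be told apart. UFD1 had 193 and 199 reads in the UFD1s-deficient GD and mock libraries, against 107 and 168 in WT GD and mock, on a transcript not stated to cover the part that differs, so these reads do not check the genotype label. Of the HEK293T marker list, CDH2 and NEFL were well measured (at least 1146 reads in each library), while KRT8 had at most 2 reads in the stress set (28 to 77 in the genotype set, on another transcript) and the measured blood and hepatocyte markers at most 8 there. In bulk RNA a lower level per cell and fewer cells that express a gene cannot be told apart.

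In mock-treated cells HOX RNA was spread over all 4 clusters and weighted toward high numbers in HOXD. Levels are given as CPM per kb, read counts scaled for depth between libraries and divided by transcript length. HOXD10, which in mice patterns lumbar motor neurons, had the highest mean of the 27, with 45.7 and 35.0 CPM per kb in the stress-set and genotype-set WT mock libraries. HOXB9, a gene of thoracic identity in mice, had 34.4 and 42.0, HOXD13, which patterns digits and the genital tract, 37.3 and 36.1, HOXB6 29.3 and 42.5, and HOXD11 28.5 and 39.5. These 5 genes cannot be ranked, since the 2 WT mock values of each overlap with those of the others. The highest HOXA gene was HOXA5, a regulator of lung and neck development in mice, at 30.1 and 27.3, and among HOXC genes HOXC13, needed for hair and nails, had 15.4 and 17.9 and HOXC8 16.6 and 15.5, which overlap. At the low end HOXA2, which sets the identity of the second pharyngeal arch, had 3.02 and 2.29, and HOXA9, a blood progenitor gene, 2.02 and 3.54.

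**Figure D1:**
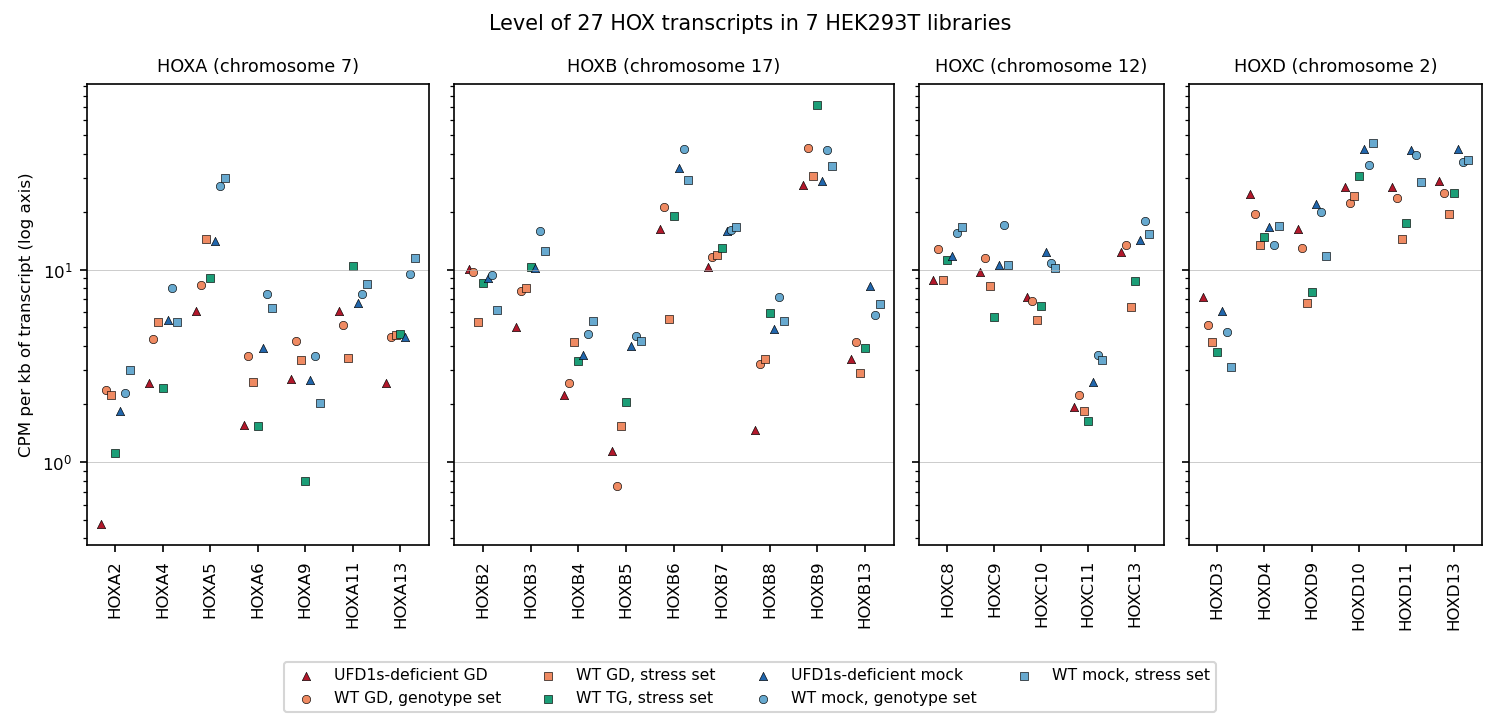
Levels of the 27 HOX transcripts measured in both tables, in CPM per kb on a log axis, by cluster and in order of gene number. Each point is 1 library, triangles are UFD1s-deficient libraries, circles genotype-set WT and squares stress-set WT libraries. Most members have their GD points below their mock points, HOXB9 has its highest point in TG (71.3 CPM per kb) and HOXD10, HOXD11 and HOXD13 stand among the highest.

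Without glucose, HOX transcripts were lower in all 4 clusters. Of 27 tested, 16 fell and 0 rose by edgeR's quasi-likelihood test on the 3 pairs of a GD and a mock library (adjusted p under 0.05). That is 59.3% of the HOX transcripts, against 11.1% of all 10368 transcripts that fell and 9.75% that rose. The count of 0 rises was the same at an unadjusted p under 0.05 in edgeR and by DESeq2. The median log2 difference was −0.65 over the 27, against −0.02 over all transcripts, and by cluster it was −0.65 for HOXA, −0.89 for HOXB, −0.61 for HOXC and −0.65 for HOXD. The HOXA median was −1.07 without WT mock and −1.06 without WT GD of the genotype set, and the HOXC median was −0.34 without either GD or mock of the stress set, so the clusters cannot be ranked. In the single pairs the median over the 27 was −0.63 in UFD1s-deficient cells, −0.61 in genotype-set WT and −0.84 in the stress set. A total of 20 transcripts (74.1%) were below 0 in all 3 pairs, against 28.4% of all transcripts, and HOXA9 and HOXD3 were above 0 in all 3, against 26.9%. By gene number, 1 of 4 anterior genes (numbers 1 to 3) fell, 8 of 10 central genes (4 to 8) and 7 of 13 posterior genes (9 to 13).

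In the HOXA cluster 3 of 7 genes fell. HOXA5 had 118, 154 and 259 reads in UFD1s-deficient, genotype-set WT and stress-set WT GD libraries, against 314, 577 and 791 in the matching mock libraries, a log2 difference of −1.32 (SE 0.16, edgeR adjusted p = 0.00105). Every GD library had fewer reads than every mock library. Scaled for depth, stress-set GD (23.8 CPM) lay just above deficient mock (23.4 CPM). HOXA6 had 18, 39 and 28 reads in GD, against 52, 94 and 99 in mock, at −1.21 (SE 0.30, edgeR adjusted p = 0.0193). HOXA13, which patterns the distal limb and the urogenital tract, had 150, 251 and 249 reads in GD, against 300, 607 and 922 in mock, at −1.08 (SE 0.15, edgeR adjusted p = 0.00165). Its GD reads were all lower than its mock reads, the lowest of which came from deficient cells. Scaled for depth, its levels overlapped, with 22.9 and 22.5 CPM in stress-set and genotype-set WT GD, against 22.4 CPM in deficient mock. HOXA9 moved otherwise, with 65, 98 and 76 reads in GD, against 74, 93 and 66 in mock, and was not called at 0.34 (SE 0.25). HOXA2, HOXA4 and HOXA11 were not called, at −0.65, −0.64 and −0.64, and of these HOXA11 was below 0 in all 3 pairs. HOXA10, on the transcript counted in the genotype set alone, had 4 and 23 reads in deficient and WT GD, against 53 and 49 in mock, and was not tested.

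In the HOXB cluster 7 of 9 genes fell, including the largest falls of the 27. HOXB5 had 27, 17 and 34 reads in UFD1s-deficient, genotype-set WT and stress-set WT GD libraries, against 110, 118 and 137 in mock, a log2 difference of −1.93 (SE 0.30, edgeR adjusted p = 0.00322). HOXB6 had 314, 390 and 100 reads in GD, against 749, 902 and 771 in mock, at −1.43 (SE 0.24, edgeR adjusted p = 0.00387). No GD library of either gene reached a mock library, and for HOXB6 the stress-set pair, at −2.34, lay far below the pairs of the genotype set, which were near each other (−1.04 in deficient cells). HOXB8, which acts in blood progenitors, had 31, 66 and 68 reads in GD, against 120, 168 and 156 in mock, at −1.15 (SE 0.26, edgeR adjusted p = 0.0144). HOXB13, known from the prostate, had 139, 163 and 109 reads in GD, against 383, 258 and 364 in mock, at −0.97 (SE 0.20, edgeR adjusted p = 0.00881). HOXB3, a hindbrain gene, had 155, 229 and 232 reads in GD, against 361, 536 and 525 in mock, at −0.89 (SE 0.15, edgeR adjusted p = 0.00399). All 3 had GD reads below every mock count. HOXB4, which expands blood stem cells when raised, had 97, 108 and 171 reads in GD, against 181, 222 and 321 in mock, at −0.63 (SE 0.18, edgeR adjusted p = 0.0368). HOXB7 had 165, 177 and 178 reads in GD, against 290, 281 and 362 in mock, at −0.52 (SE 0.15, edgeR adjusted p = 0.0388). HOXB2 and HOXB9 were not called, at 0.01 (SE 0.18) and −0.07 (SE 0.10). HOXB9 had 828, 1233 and 861 reads in GD, against 1000, 1383 and 1409 in mock, and its scaled levels of 27.6, 42.9 and 30.6 CPM per kb in GD overlapped with 28.9, 42.0 and 34.4 in mock.

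Of the HOXC genes 2 of 5 fell, and all 5 were below 0 in all 3 pairs. HOXC10, which in mice acts in lumbar patterning, had 163, 148 and 116 reads in UFD1s-deficient, genotype-set WT and stress-set WT GD libraries, against 322, 268 and 314 in mock, a log2 difference of −0.78 (SE 0.16, edgeR adjusted p = 0.01). HOXC8, a gene of thoracic identity, had 194, 269 and 182 reads in GD, against 298, 373 and 497 in mock, at −0.53 (SE 0.17, edgeR adjusted p = 0.0484). Every GD count was below every mock count for both genes. Scaled for depth, HOXC8 overlapped, with 24.1 CPM in genotype-set WT GD and 22.2 CPM in deficient mock. The HOXC8 call was lost with another scaling (RLE size factors) and by DESeq2. It was also lost in all 6 fits with a single library left out, which take each of the 3 pairs out of the GD estimate in turn. Fits with genotype-set or WT libraries only, which each drop 1 of the same pairs, lost it as well. HOXC13 had 350, 364 and 168 reads in GD, against 464, 555 and 592 in mock, and missed the threshold at −0.61 (SE 0.20, edgeR adjusted p = 0.0514), as did HOXC11 at −0.68 (SE 0.22, edgeR adjusted p = 0.0519). HOXC13 was called lower by DESeq2 and with scaling by library totals. It was also called lower in the 2 fits without a WT library of the genotype set, which both drop the same pair. HOXC11 was called lower with library totals. HOXC9 was not called at −0.35 (SE 0.17). HOXC5, not tested, had 13 and 10 reads in deficient and WT GD, against 20 and 39 in mock.

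In the HOXD cluster the 4 genes from HOXD9 on fell by similar amounts. HOXD10 had 624, 492 and 521 reads in UFD1s-deficient, genotype-set WT and stress-set WT GD libraries, against 1126, 889 and 1442 in mock, a log2 difference of −0.74 (SE 0.11, edgeR adjusted p = 0.00219). HOXD11, which with HOXA11 shapes the kidney and forearm in mice, had 482, 404 and 241 reads in GD, against 862, 774 and 693 in mock, at −0.78 (SE 0.12, edgeR adjusted p = 0.00295). HOXD13 had 757, 621 and 476 reads in GD, against 1277, 1033 and 1327 in mock, at −0.67 (SE 0.11, edgeR adjusted p = 0.00433). For each of these 3 genes every GD count was below every mock count. HOXD9 had 353, 270 and 136 reads in GD, against 552, 475 and 350 in mock, at −0.62 (SE 0.14, edgeR adjusted p = 0.0148), and its deficient GD count was above its stress-set mock count. HOXD3 and HOXD4, at the other end of the cluster, were not called at 0.27 each (SE 0.18 and 0.19). HOXD4 had 422, 317 and 214 reads in GD, against 326, 251 and 390 in mock, with pairs at 0.57, 0.53 and −0.30. Most of their transcript letters are shared with another annotated gene, AC009336.2, in 30-base windows (96.3% of windows of HOXD3 and 78.3% of HOXD4 occur in another gene), so their reads are uncertain.

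**Figure D2:**
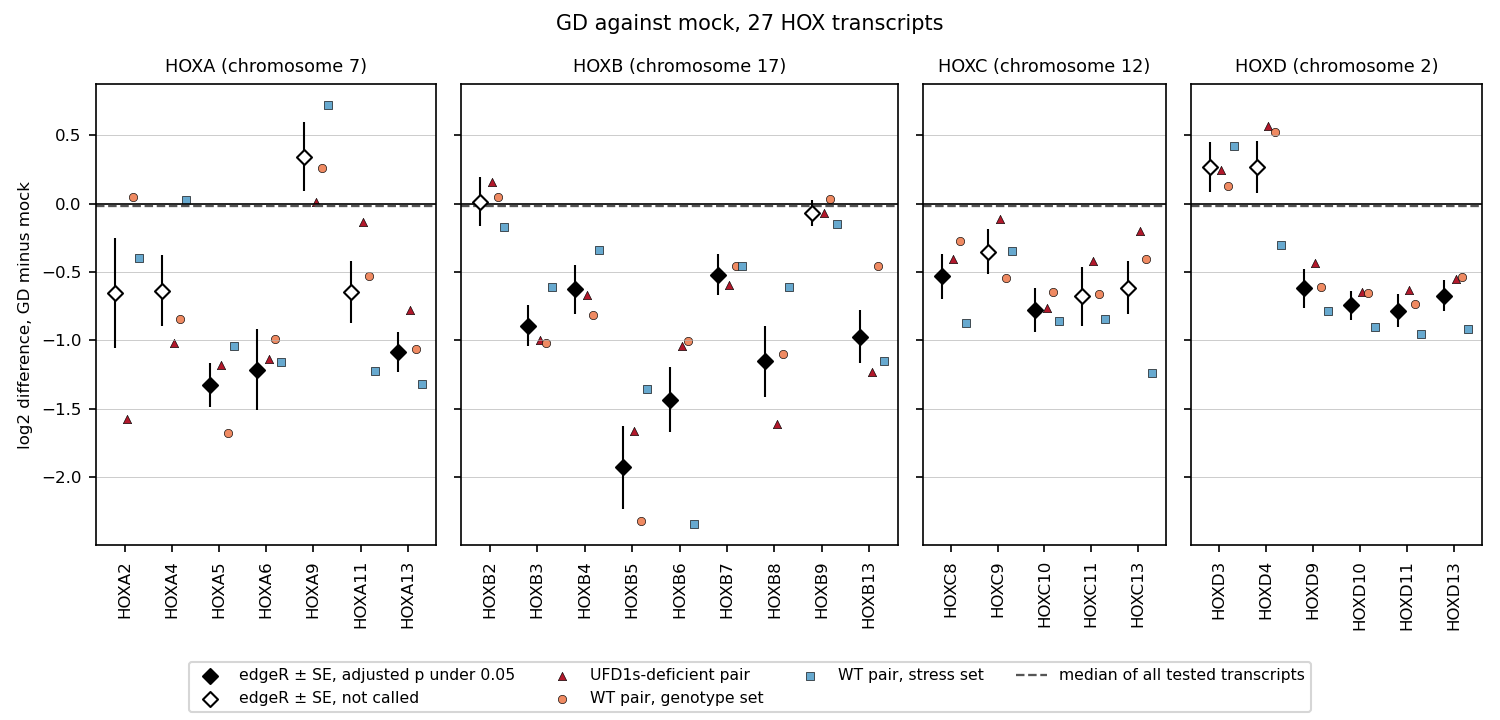
Log2 difference between GD and mock for the 27 HOX transcripts, by cluster. Diamonds with bars are edgeR estimates with SE (filled at an adjusted p under 0.05), small symbols are the 3 single pairs, and the dashed line is the median of all transcripts at −0.02. The filled diamonds are all below 0, between −1.93 and −0.52.

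How many HOX transcripts passed depended on the libraries entered, while no called value changed its sign. With a single library left out, which leaves 1 residual degree of freedom, 7 fell without either UFD1s-deficient library, 12 without WT GD or WT mock of the genotype set, and 16 without GD or mock of the stress set. HOXD4 rose in the last 2 fits. The 7 that fell in each of these 6 fits were HOXA5, HOXA13, HOXB5, HOXB6, HOXD10, HOXD11 and HOXD13. The terms for set and genotype fit the level of each pair, so leaving out 1 library takes its whole pair out of the GD estimate. For GD the 6 fits are therefore 3 checks, each run in 2 nearly identical forms. With treatment as the only term, which drops the terms for set and genotype together, 0 of 27 and 23 of all transcripts were called by edgeR. A fibroblast marker list moved with GD as well, with 3 of 5 tested members lower (COL1A1, COL3A1 and LUM) and THY1 higher (11.1% and 9.75% of all transcripts were lower and higher), and a summed level of 25.7 to 60.8 CPM in GD, against 52.9 to 113 CPM in mock. COL1A2 had 0 reads in stress-set GD and mock, and the part of these markers in the HOX result was not tested. Of the HEK293T list, LHX1 and NEFL fell in GD, at −0.79 (SE 0.19) and −0.72 (SE 0.10), while CDH2 was not called at 0.38 (SE 0.12). Of the other lists, both tested neuroblastoma genes fell (ISL1 and HAND2), and the single tested endothelial and pluripotent genes, VWF and LIN28A, were not called.

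In thapsigargin the transcripts lower past 2-fold were mostly HOXA genes. The TG library was compared with the mock library of its set, 1 against 1, so there is no test. A transcript counted as past the bound where the log2 difference, computed with a prior count of 5, reached 2-fold and the larger count was at least 50 reads, and intervals cover counting error only. All 27 transcripts had 50 reads, and 7 were lower past the bound, 25.9% against 3.31% of all transcripts, while 1 was higher, 3.70% against 4.73%. Of the 7 lower, 6 were HOXA genes, out of 7 in that cluster. A total of 22 were below 0, against 49.1% of all transcripts. The median log2 difference was −1.30 for HOXA, −0.35 for HOXB, −0.81 for HOXC and −0.57 for HOXD, and 0.01 over all transcripts.

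Among the HOXA genes, HOXA6 had 25 reads in TG, against 99 in mock, a scaled ratio of 0.245 (95% interval 0.151 to 0.383), and HOXA5 had 246, against 791, a ratio of 0.301 (0.260 to 0.348). HOXA2 had 33 reads in TG, against 87 in mock (ratio 0.367, interval 0.238 to 0.554), and HOXA9 had 27, against 66 (ratio 0.396, interval 0.243 to 0.629). HOXA13 had 381, against 922 (ratio 0.400, interval 0.354 to 0.452), and HOXA4 had 69, against 146 (ratio 0.458, interval 0.339 to 0.614). None of these 6 intervals reaches 1. HOXA11 was the exception in its cluster, with 395 reads in TG, against 307 in mock (ratio 1.25, interval 1.07 to 1.45). HOXA11 shares 30.1% of its 30-base windows with HOXA11-AS, whose own row had 49 reads in TG, against 112 in mock. In the other clusters HOXC11 was past the bound, with 87 reads in TG, against 176 in mock (ratio 0.479, interval 0.366 to 0.623). HOXB5 lay just outside, with 69 reads in TG, against 137 in mock, a ratio of 0.488 without the prior count and a log2 difference of −0.98 with it.

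HOXB9 was the single HOX transcript past the bound upward. It had 3025 reads in TG, against 1409 in mock, a scaled ratio of 2.08 (95% interval 1.95 to 2.22). It took 58.4% of the HOXB reads in TG and 33.6% in mock. The sum of the HOXB cluster was 315 CPM in TG, against 264 CPM in mock (ratio 1.19, interval 1.15 to 1.24), and without HOXB9, a split chosen after its value was seen, the other 8 genes had a ratio of 0.746 (interval 0.705 to 0.790). Scaled by library totals alone, which lowers the TG median of all transcripts by 0.115 on the log2 scale, HOXB9 was at 0.94 and no longer past 2-fold. An edgeR fit of all 7 libraries can only assume that the lone TG library varies like the others, so its calls are no replicate check. It listed HOXB9 as higher, with a log2 difference of 1.101, and HOXA5, HOXA6 and HOXA13 as lower, at −1.86, −2.00 and −1.21, beside 5.13% of all transcripts listed as higher and 3.02% as lower.

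GD in the same set used the same mock library, so the 2 ratios of a gene are not independent and are given side by side. By the 2-fold rule, 8 of 27 HOX transcripts were lower in stress-set GD (29.6%, against 3.57% of all transcripts) and 0 higher (against 3.73%). HOXA5, HOXA6 and HOXA13 were the 3 past the bound downward in both treatments. The others in GD were HOXA11 with 87 reads, against 307 in mock, HOXB5 with 34, against 137, HOXB6 with 100, against 771, HOXB13 with 109, against 364, and HOXC13 with 168, against 592. HOXA9 was at −1.18 in TG and 0.72 in GD, and HOXB9 at 1.053 and −0.15. The cluster medians in stress-set GD were −1.04 for HOXA, −0.61 for HOXB, −0.86 for HOXC and −0.85 for HOXD. HOXA was lowest and HOXB least low, as in TG, but both orders rest on the same mock library. HOXC and HOXD were nearly equal in GD. Over the 3 pairs of GD and mock HOXB had the lowest median, at −0.89, and the clusters could not be ranked.

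**Figure D3:**
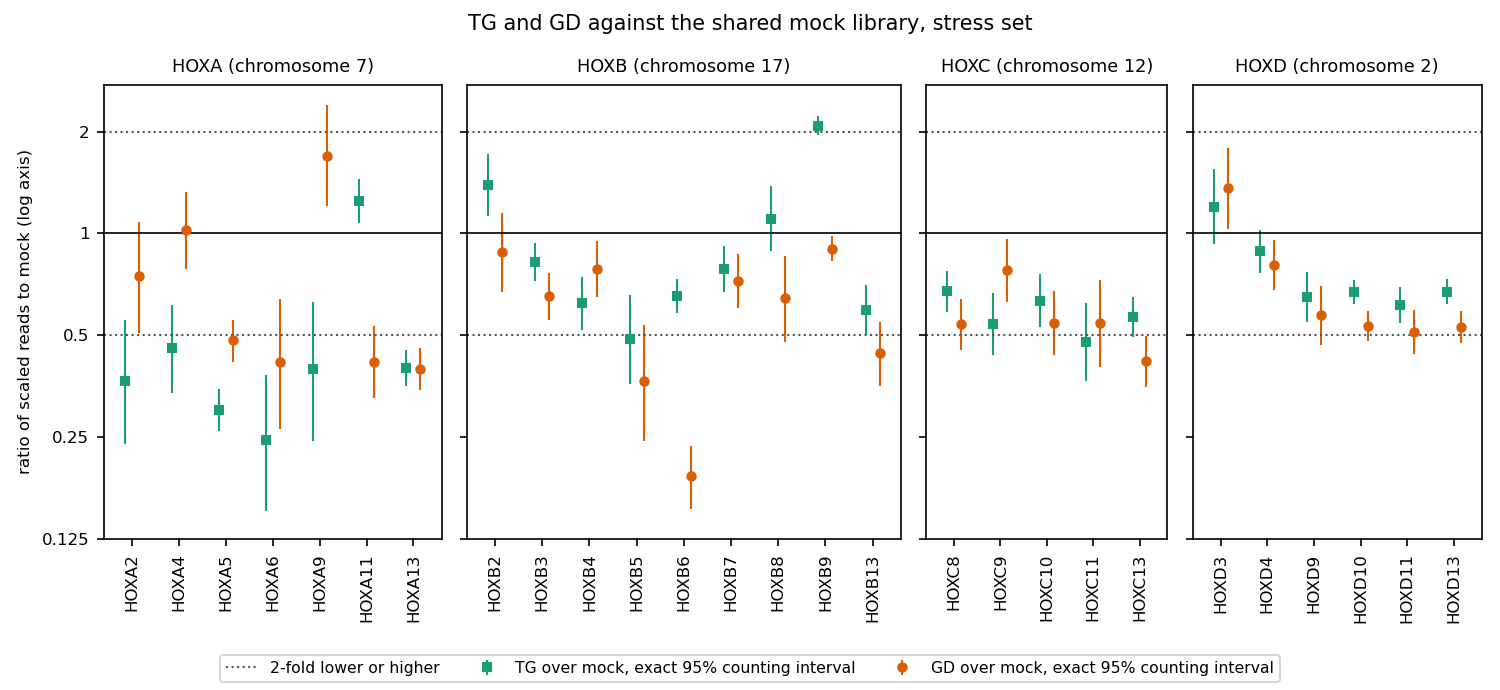
Ratio of scaled reads to the shared mock library of the stress set for the 27 HOX transcripts, TG as squares and GD as circles, on a log axis. Bars are exact 95% counting intervals and dotted lines mark 2-fold. In TG 6 of 7 HOXA genes lie below the lower dotted line and HOXB9 lies above the upper one at 2.08. Ratios are drawn without the prior count, so HOXB5 in TG lies below the line at 0.488 but was not counted.

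The UFD1s-deficient cells were compared with WT cells over both treatments. The genotype p-values are set against the spread of the GD response between pairs. They hold no spread between separate cultures of the same genotype. By edgeR, 1 of 27 HOX transcripts was lower (3.70%, against 0.781% of all transcripts) and 0 were higher (against 0.328%), with 1.11% of all transcripts called in either direction. At an unadjusted p under 0.05, edgeR had 8 lower and 0 higher, beside 1470 of all transcripts in either direction, and DESeq2 called 2 lower and 0 higher, beside 220 of all transcripts. HOXA13 was the call, with 150 and 300 reads in deficient GD and mock, against 251 and 607 in WT GD and mock, a log2 difference of −0.95 (SE 0.18, edgeR adjusted p = 0.0463). In WT mock of the stress set HOXA13 stood at 11.6 CPM per kb, against 9.45 in WT mock of the genotype set, both well above the 4.45 of deficient mock. The call was lost with RLE size factors (edgeR adjusted p = 0.0517), with library totals (0.0592 by edgeR) and when any library of the genotype set was left out (edgeR adjusted p = 0.656 without deficient mock, 0.413 without deficient GD, 0.0945 without WT mock and 0.0691 without WT GD). Without stress-set mock or stress-set GD it held, and edgeR then called 6 and 10 HOX transcripts lower, while its calls over all transcripts went up to 1655 and 1938, against 115 with all 6 libraries. HOXB9 lay just outside the threshold at −0.59 (SE 0.12, edgeR adjusted p = 0.0512), with 828 and 1000 reads in deficient GD and mock, against 1233 and 1383 in WT, and DESeq2 called it (adjusted p = 0.0205).

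The clusters differed in direction. The median log2 difference between deficient and WT cells was −0.73 for HOXA, −0.30 for HOXB, −0.34 for HOXC and 0.26 for HOXD, beside 0.01 over all transcripts. Single libraries moved these medians. Without deficient GD they were −0.43 for HOXA, −0.55 for HOXC and 0.12 for HOXD, without deficient mock −0.16 for HOXB and −0.16 for HOXC, and without WT mock of the genotype set −0.46 for HOXA. HOXA had 6 of 7 genes below 0 in both the GD and the mock pair, against 33% of all transcripts, and HOXB had 6 of 9 and HOXC 4 of 5. By the edgeR estimate 6 of 7 HOXA genes were below 0 as well, beside 89.12% of the 478 tested transcripts of chromosome 7. HOXD had 6 of 6 above 0 in both pairs, against 34.5% of all transcripts, between 0.14 for HOXD11 and 0.42 for HOXD3, and no HOXD gene was called in the 6 libraries. In the 4 libraries of the genotype set alone, edgeR called HOXD10 higher and 9 genes lower, HOXA5, HOXA6, HOXA13, HOXB3, HOXB6, HOXB8, HOXB9, HOXC8 and HOXC9, in a fit that called 1942 of all 10368 transcripts. Summed by cluster, HOXA stood at 49.5 CPM in deficient GD, against 72.2 CPM in WT GD, and at 83.5 CPM in deficient mock, against 142 CPM in WT mock. HOXD stood at 243 CPM in deficient GD, against 201 CPM in WT GD, and at 323 CPM in deficient mock, against 279 CPM in WT mock. HOXD thereby took 44.9% and 42.3% of the HOX reads in deficient GD and mock, against 33.6% and 32.1% in WT GD and mock.

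The chromosomes that carry the clusters differed as well. Chromosome 7, with HOXA, had a median of −0.37 over 478 tested transcripts, 89.12% of them below 0, the lowest median after that of chromosome 16 at −0.45. Of these 478, edgeR called 18 lower, HOXA13 among them, and 0 higher. Chromosome 2, with HOXD, had a median of 0.10 over 707, chromosome 12, with HOXC, −0.06 over 558, and chromosome 17, with HOXB, 0.03 over 638. Each cluster was set beside the nearest 20 tested transcripts that flank it, 10 on each side. Their median was −0.34 around HOXA (18 of 20 below 0), −0.01 around HOXB, −0.04 around HOXC and −0.06 around HOXD. HOTAIRM1 and HOXC13-AS of the cluster list are among those around HOXA and HOXC, at −0.86 and −0.93. EdgeR called none of the 20 around any cluster. Of the HOXA genes, 6 of 7 lay below the median of chromosome 7, HOXA13 by the difference between −0.95 and −0.37. The part of the chromosome-wide shift in the HOXA values was not tested.

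**Figure D4:**
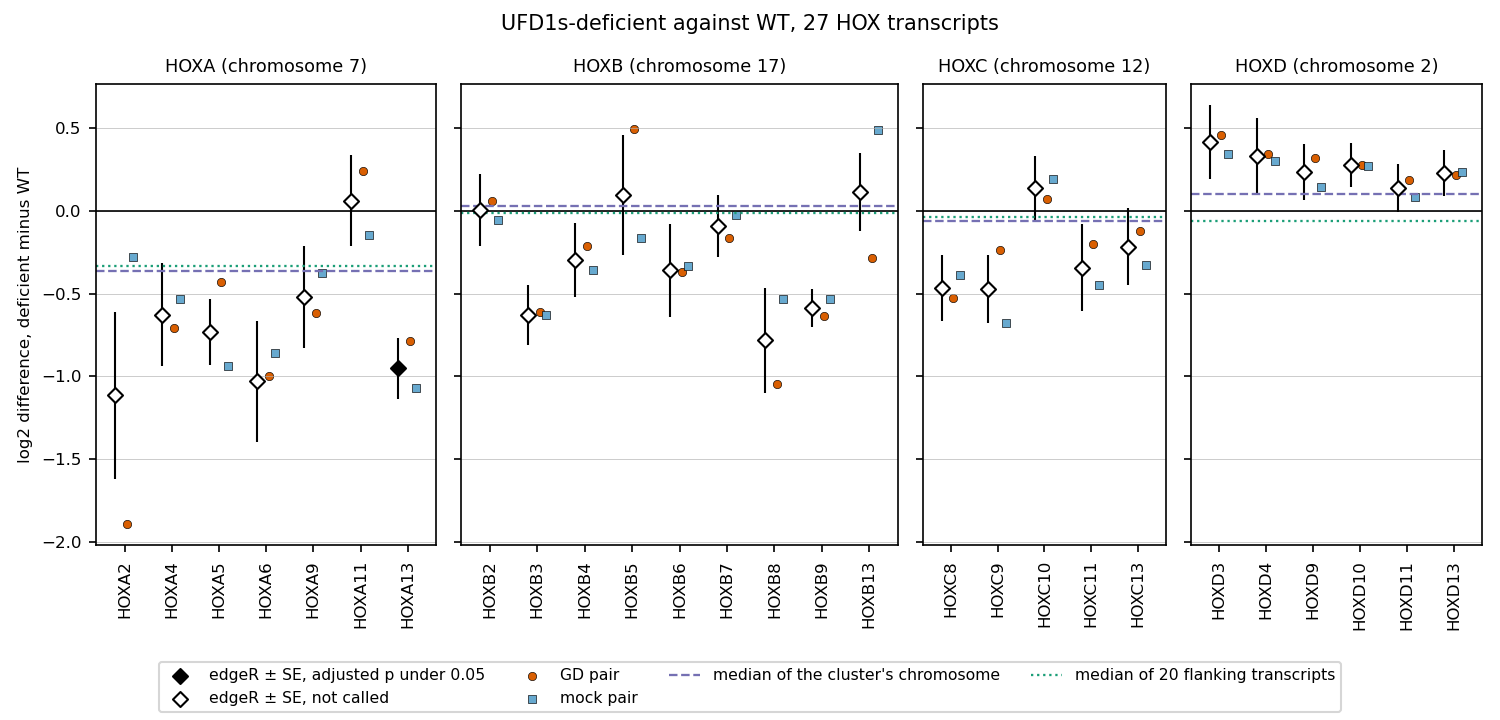
Log2 difference between UFD1s-deficient and WT cells for the 27 HOX transcripts, by cluster. Diamonds with bars are edgeR estimates with SE (filled at an adjusted p under 0.05), circles the GD pair and squares the mock pair, dashed lines the median of the cluster's chromosome and dotted lines the median of 20 flanking transcripts. All 6 HOXD estimates are above 0 and 6 of 7 HOXA estimates lie below the median of chromosome 7 at −0.37, with HOXA13 as the one filled symbol.

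The GD response itself was compared between genotypes in a fit with an interaction term, which leaves 1 residual degree of freedom. EdgeR and DESeq2 called 0 of 27 HOX transcripts and 0 of 10368 transcripts in all (0% in background). At an unadjusted p under 0.05 edgeR had 0 HOX transcripts and 123 of all transcripts. HOXA2 had the lowest p of the 27, 0.0570 by edgeR, with 10 and 45 reads in deficient GD and mock, against 48 and 53 in WT GD and mock. Summed by cluster, the GD to mock ratio was 0.593 in deficient and 0.507 in WT cells of the genotype set for HOXA, 0.661 and 0.721 for HOXB, 0.777 and 0.723 for HOXC, and 0.753 and 0.720 for HOXD.

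**Figure D5:**
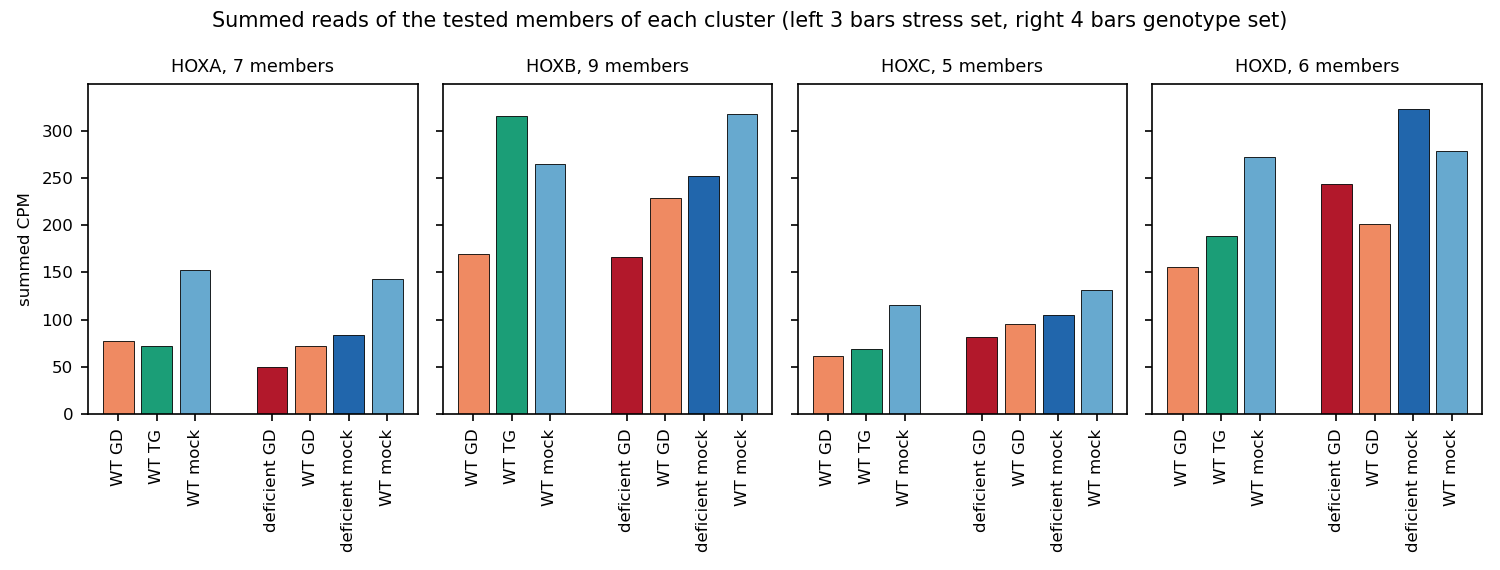
Summed level of the tested members of each cluster in CPM, 1 bar per library, with the stress set left and the genotype set right in each panel. HOXA and HOXC have their highest bars in WT mock, HOXB reaches 315 CPM in stress-set TG and 318 CPM in genotype-set WT mock, and HOXD has its highest bar in UFD1s-deficient mock at 323 CPM.

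Genes that work with or on HOX genes were described by lists, whose counts in GD stand beside 9.75% of all transcripts that rose, 11.1% that fell and 20.9% called in all. Of 9 HOX cofactors, the TALE homeodomain proteins that bind DNA together with HOX proteins, 6 were tested and 2 fell in GD, MEIS1 at −0.78 (SE 0.14, edgeR adjusted p = 0.00555) and PKNOX1 at −0.40 (SE 0.11, edgeR adjusted p = 0.0267), and 0 rose. Of 22 tested Polycomb genes 3 rose, PCGF1 at 0.89, EZH1, a catalytic subunit that methylates histone H3, at 0.62 and PHC1 at 0.38, and 2 fell, CBX2 at −1.07 and CBX6 at −0.44, both readers of that mark. CBX2 had 846, 963 and 771 reads in deficient, genotype-set WT and stress-set WT GD, against 2204, 2510 and 2004 in mock, and 802 in TG. Every GD and TG count of CBX2 was below every mock count. Of 10 tested trithorax genes 2 rose in GD, the methyltransferase genes DOT1L at 0.60 and KMT2B at 0.40, and 0 fell. The 5 called of 22 Polycomb genes and the 2 called of 10 trithorax genes are shares near that of all transcripts. The medians in GD were −0.59 for cofactors, 0.04 for Polycomb and 0.18 for trithorax genes.

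Of 9 tested genes of HOX induction and retinoid signalling, 5 fell in GD and 0 rose, beside 11.1% and 9.75% of all transcripts. GDF11, a secreted factor that advances posterior HOX expression in mice, was at −1.24 (SE 0.11, edgeR adjusted p = 0.000328), with 674, 609 and 709 reads in deficient, genotype-set WT and stress-set WT GD, against 1926, 1918 and 2008 in mock. Its GD counts were all far below its mock counts, and in TG it had 1003 reads, past 2-fold. The retinol enzymes DHRS3 and RDH10 were at −1.10 and −1.07, CDX2, a regulator of central HOX genes, at −0.69 and the retinoid receptor RXRA at −0.28. RDH10 was the one gene of these lists called by genotype, at −0.73 (SE 0.13, edgeR adjusted p = 0.0355), with 565 and 1530 reads in deficient GD and mock, against 1029 and 2114 in WT. Of 6 tested non-coding transcripts of the clusters, HOTAIRM1, a transcript at the anterior end of HOXA, fell in GD at −0.95 (SE 0.26, edgeR adjusted p = 0.0313) and 0 rose. The list was at a median of −0.55 in GD and −0.77 in TG.

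Several members share sequence with other genes, and their values are uncertain to that degree. Apart from HOXD3 and HOXD4, the largest shares of 30-base windows among tested members were 43.6% for HOXA4, 30.1% for HOXA11, 28.5% for HOXD11 (with HOXD10), 22.2% for HOXA6 and 18.2% for HOXA9. HOXB6 shared 15.4% with other genes, mostly HOXB-AS3, and 9.32% with HOX genes of its own cluster. The share was 1.18% for HOXA13, 0.43% for HOXB9 (with another HOX cluster) and 0 for HOXD13.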

How the data were processed

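RNA of 7 HEK293T libraries was analysed, and 3 libraries of a mouse line were not used. The deposited tables hold raw read counts per RefSeq transcript. Bowtie2, bedtools, cutadapt and FastQC, with the builds mm10 and hg19, appear in the submitters' processing notes. How reads were assigned to transcripts, and whether by strand, is not given in the sources used here. In the genotype table the lowest sum of reads over a row was 75. Counts of the 10368 shared transcripts in the 6 mock and GD libraries were tested with edgeR 4.0.16 (R 4.3.3; quasi-likelihood, TMM scaling, terms for set, genotype and treatment, 2 residual degrees of freedom, which blocks the 3 pairs of GD and mock) with Benjamini-Hochberg adjustment at 0.05. TG and the stress-set GD pair had no test of their own (a fit of all 7 libraries, tried as an alternative, assumes that the lone TG library varies like the others): log2 ratios of CPM used a prior count of 5, and exact conditional 95% intervals cover counting error only. Levels were divided by GENCODE v29 transcript length. RefSeq GRCh38.p14 gave names, gene order and promoters, and no coordinate of the authors' build was converted. Alternatives included DESeq2 1.42.0, other scalings and filters, and each library left out. The test script was checked on simulated counts.

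The members and lists were chosen with earlier results of these data known. Named with reads were the members called by edgeR, those past 2-fold in TG or stress-set GD and the highest of each cluster, with up to 4 called genes of each related list; other members named were chosen after their values were seen. Some genes of the lists are not reported here.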

Additional observations from a re-analysis of the deposited data

How the results depend on the processing

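No called member changed direction under any alternative run, and member counts stayed within 1.5 times for GD with RLE, library totals, DESeq2 and both filters (14 to 18 lower). With genotype-set libraries only, GD had 4040 calls, 1 HOX transcript higher and medians of −0.95 (HOXA) and −0.34 (HOXC), and genotype had 1942 calls with 9 HOX transcripts lower and 1 higher. With WT libraries only, GD had 490 calls, 7 HOX transcripts lower and a HOXA median of −0.90, and with treatment as the only term 23 calls and 0 lower. Over members with a mean of 50 or more reads the HOXA median in GD was −0.86. For genotype, RLE and library totals gave 0 HOX transcripts lower, and DESeq2 gave 220 calls with 2 lower. With library totals TG had 0 higher and medians of −1.41, −0.46, −0.93 and −0.69 (HOXA to HOXD), and stress-set GD had 13 lower and medians of −1.19, −0.75, −1.001 and −0.99. In the fit of 7 libraries TG had 3 lower and medians of −1.54 (HOXA), −0.61 (HOXC) and −0.48 (HOXD). At 20 reads, 1128 transcripts were past 2-fold in TG and 1066 in stress-set GD.

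With each library left out, GD calls ranged from 494 to 4039, HOX transcripts lower from 7 to 16 and higher from 0 to 1, and medians from −1.07 to −0.90 for HOXA and −0.78 to −0.34 for HOXC. Genotype calls ranged from 5 to 1938, HOX transcripts lower from 0 to 10 and higher from 0 to 1, and medians from −0.79 to −0.43 for HOXA, −0.30 to −0.16 for HOXB, −0.55 to −0.16 for HOXC and 0.12 to 0.36 for HOXD. These fits have fewer residual degrees of freedom. For GD each also loses the whole pair of the library left out, since the terms for set and genotype take up the level of its partner. Other causes of the shifts were not tested. The GD test was paired by its terms for set and genotype, and the labels carry no replicate numbers for another block.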
